A study of Rattus norvegicus with 24 samples.

Results

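The transcripts described here encode adenylyl cyclases, which make cyclic AMP, and phosphodiesterases, not all of which act on cyclic AMP. They also encode the kinase that cyclic AMP activates, its anchors, and subunits of AMPK, a kinase of related name that senses AMP. They were taken from arrays of rat dorsal striatum, a forebrain region that dopamine neurons of the midbrain supply, as all probes whose gene symbol begins with Adcy, Pde or Akap and a number, or with Prka. Adcy5 and Pde10a are not among them. This rule gave 62 of 22523 probes and 57 of 13337 named genes, with 8 probes for adenylyl cyclases, 23 for phosphodiesterases, 5 for subunits of cyclic AMP-dependent protein kinase (PKA), 7 for AMPK subunits and 19 for A-kinase anchor proteins. Male Sprague-Dawley rats took methamphetamine (METH), a psychostimulant that raises extracellular dopamine, by self-administration at 0.1 mg/kg per intravenous injection, in sessions of 15 h over 8 days. They were killed 2 h or 24 h after the last session. The control rats were yoked saline animals of the same sex and strain, for which the labels give no time of death. Whole dorsal striata were used, and the labels name no genetic modification and no age. The 24 arrays form 4 groups of 6, with 6 METH 2 h and 6 saline arrays on slide 1, and 6 METH 24 h and 6 saline arrays on slides 2 and 3 (3 of each per slide). The series title names transcription that depends on phosphorylated CREB as its subject. The comparisons ask whether each METH group differed from saline arrays on the same slides. They also ask whether the METH effect differed between the times, which cannot be told apart here from a difference between the slide sets.

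In striatal projection neurons, dopamine D1 receptors stimulate adenylyl cyclase through the G protein subunit encoded by Gnal, and D2 receptors inhibit it. Cyclic AMP binds the regulatory subunits of PKA and frees the catalytic subunits, which phosphorylate channels, receptors, the phosphatase inhibitor DARPP-32 and the transcription factor CREB. Phosphodiesterases end the signal by hydrolysing cyclic AMP, cyclic GMP or both, and A-kinase anchor proteins (AKAPs) bind the regulatory subunits of PKA and place the enzyme near its substrates. AMPK, another protein kinase, senses the energy state of the cell through AMP. Its gene names share their first letters with those of PKA.

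CREB binds the cyclic AMP response element (CRE), so the promoters were searched for it. RefSeq promoters of the assembly GRCr8, from 250 bases before to 50 bases after the annotated start, were at hand for 45 of the 57 genes, in 57 promoters. Adcy3, Adcy6, Adcy8, Pde1b, Pde3b, Pde4c, Pde6c, Pde6d, Pde7a, Pde7b, Pde9a and Prkar2a had no entry. The full element TGACGTCA, which is its own reverse complement, was present in 1 of these genes, Akap17a, and so in 1.75% of the member promoters against 1.83% of all 33469 promoters. Its shorter core TGACG, or CGTCA on the other strand, counted outside a full element, was present in 11 genes (Adcy7, Akap8l, Akap11, Akap13, Pde4a, Pde4d, Pde8a, Prkab2, Prkaca, Prkacb and Prkag1) and in 22.8% of the member promoters, against 20.0% of all. Both shares lie close to those of all promoters. A match is only a run of letters and shows no binding. Shown are the promoter with the full element (Akap17a, chr12:21428198-21428497), that of the gene with the lowest p at 2 h (Akap8l, chr7:12012762-12013061) and that of a PKA catalytic subunit with a pair of cores (Prkaca, chr19:41083140-41083439). Each is on the minus strand, printed 5′ to 3′ with the full element or the core in capitals.
Akap17a: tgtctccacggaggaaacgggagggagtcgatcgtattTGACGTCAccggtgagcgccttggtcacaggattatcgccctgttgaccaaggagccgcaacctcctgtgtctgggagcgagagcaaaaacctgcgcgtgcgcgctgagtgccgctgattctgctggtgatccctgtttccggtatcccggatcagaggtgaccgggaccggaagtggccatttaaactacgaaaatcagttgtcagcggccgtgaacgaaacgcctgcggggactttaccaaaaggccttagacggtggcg
Akap8l: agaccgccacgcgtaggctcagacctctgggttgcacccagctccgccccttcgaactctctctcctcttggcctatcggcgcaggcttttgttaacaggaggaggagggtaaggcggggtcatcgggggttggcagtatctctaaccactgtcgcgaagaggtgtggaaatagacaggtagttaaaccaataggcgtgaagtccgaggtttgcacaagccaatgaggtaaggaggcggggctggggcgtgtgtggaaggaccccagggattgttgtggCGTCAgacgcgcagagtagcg
Prkaca: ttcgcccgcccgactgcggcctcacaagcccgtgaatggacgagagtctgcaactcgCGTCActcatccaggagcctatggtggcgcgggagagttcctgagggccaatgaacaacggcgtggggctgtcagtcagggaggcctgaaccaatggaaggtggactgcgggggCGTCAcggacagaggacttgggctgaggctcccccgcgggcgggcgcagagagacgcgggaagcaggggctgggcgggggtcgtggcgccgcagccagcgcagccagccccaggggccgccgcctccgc

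Arrays of slide 1 had 8208 to 9433 detected probes and those of slides 2 and 3 had 9368 to 10297. The first principal component of all tested probes, with 47.1% of the variance, put slide 1 (-30.2 to -6.21) apart from slides 2 and 3 (14.7 to 31.2). A probe counted as detected on an array where its signal exceeded the background at a detection p under 0.05, and it was tested where it was detected on at least 6 of the 24 arrays. Of the 62 probes, 36 passed this filter, each for a different gene, against 10353 of all 22523 probes. Among the 36, 21 were detected on all 24 arrays, as were 63.9% of all tested probes, and 15 on 6 to 23. A further 6 probes were detected on 1 to 5 arrays and 20 on none. PKA was the most fully detected family, with 4 of 5 subunits on every array. Of the cyclases, Adcy2 and Adcy3 were on all arrays, Adcy8 on 18 and Adcy4 on 17, while Adcy1, Adcy6 and Adcy7 were on none and Adcy10, the soluble cyclase, on 3. A probe that is not above background shows only that this probe gave no signal. Phosphodiesterases had 15 of 23 probes tested, and Pde1c, Pde3a, Pde4c, Pde6a, Pde6b, Pde11a and Pde12 were on no array. Of the anchors, 9 of 19 probes were tested, and Akap3, Akap4, Akap7, Akap11 and Akap14 were on none. Probes of the same gene disagreed, since 1 Akap9 probe was on 24 arrays and the other two were on 0 and 2, and 1 Akap13 probe was on 17 and the other on 0.

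**Figure D1:**
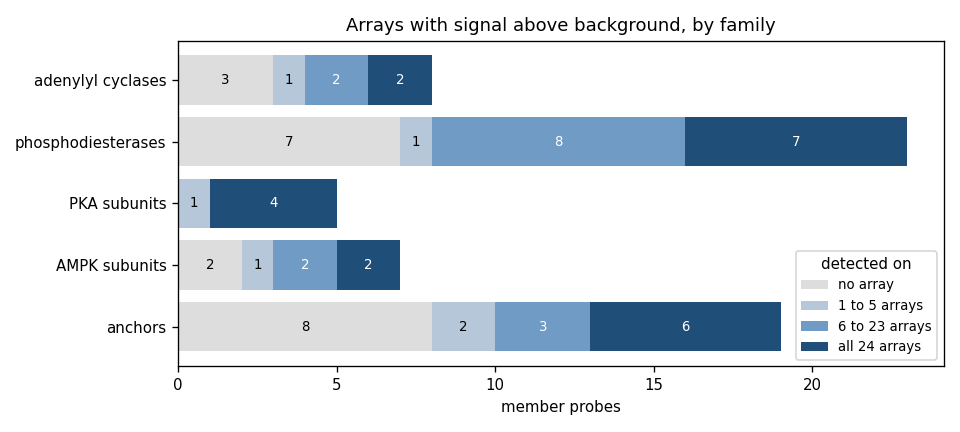
Number of probes (horizontal axis) of each family by the number of arrays on which they were detected. All of the PKA probes were detected on some array, while 8 of 19 anchor probes and 7 of 23 phosphodiesterase probes were detected on none.

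No transcript of these families passed an adjusted p of 0.05 in any comparison. The tests were limma fits to all 10353 tested probes with Benjamini-Hochberg adjustment, and the values below are normalized log2 signals, which have no scale that compares different probes. At 2 h, 0 of 36 members passed, against 1 probe or 0.00966% of all, and the lowest adjusted p of a member was 0.583. At an unadjusted p under 0.05 there were 3 members (Akap8l, Pde5a and Pde1b, all lower after METH) against 6.04% of all probes, of which 3.45% were higher and 2.59% lower. At 24 h, 0 of 36 passed, against 8 probes or 0.0773% of all, with a lowest adjusted p of 0.998. Here 1 member, Pde8b, had an unadjusted p under 0.05 and was lower, against 4.09% of all probes, 2.17% higher and 1.91% lower. For the difference between the METH effects at the 2 times, 0 of 36 passed, against 0% of all probes, with a lowest adjusted p of 0.809, and 3 members (Pde8b, Pde5a and Akap8l) had an unadjusted p under 0.05, against 4.95% of all. This difference, the effect at 24 h minus that at 2 h, was above 0 for Pde5a and Akap8l, against 2.12% of all probes. It was below 0 for Pde8b, against 2.82%. In no member did the 6 METH arrays lie wholly above or wholly below the 6 saline arrays. Among all probes this occurred at 2 h in 0.251% (above) and 0.145% (below), and at 24 h in 0.0773% and 0.0966%.

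Changes after METH were below 0 in 24 of 36 members at 2 h, against 51.0% of all tested probes, and in 24 of 36 at 24 h, against 50.6%. The median change of the members was -0.06 at 2 h and -0.03 at 24 h, where that of all probes was -0.00389 and -0.00207. The median residual SD of a single member was 0.264 on slide 1 and 0.177 on slides 2 and 3. The count at 2 h depends on the scaling. With scaling to the array medians in place of quantile normalization, the median of all probes at 2 h moved to 0.15 and 10 of 36 members lay below 0, although 22 of 36 still lay below that median, against 23 of 36 as reported.

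**Figure D2:**
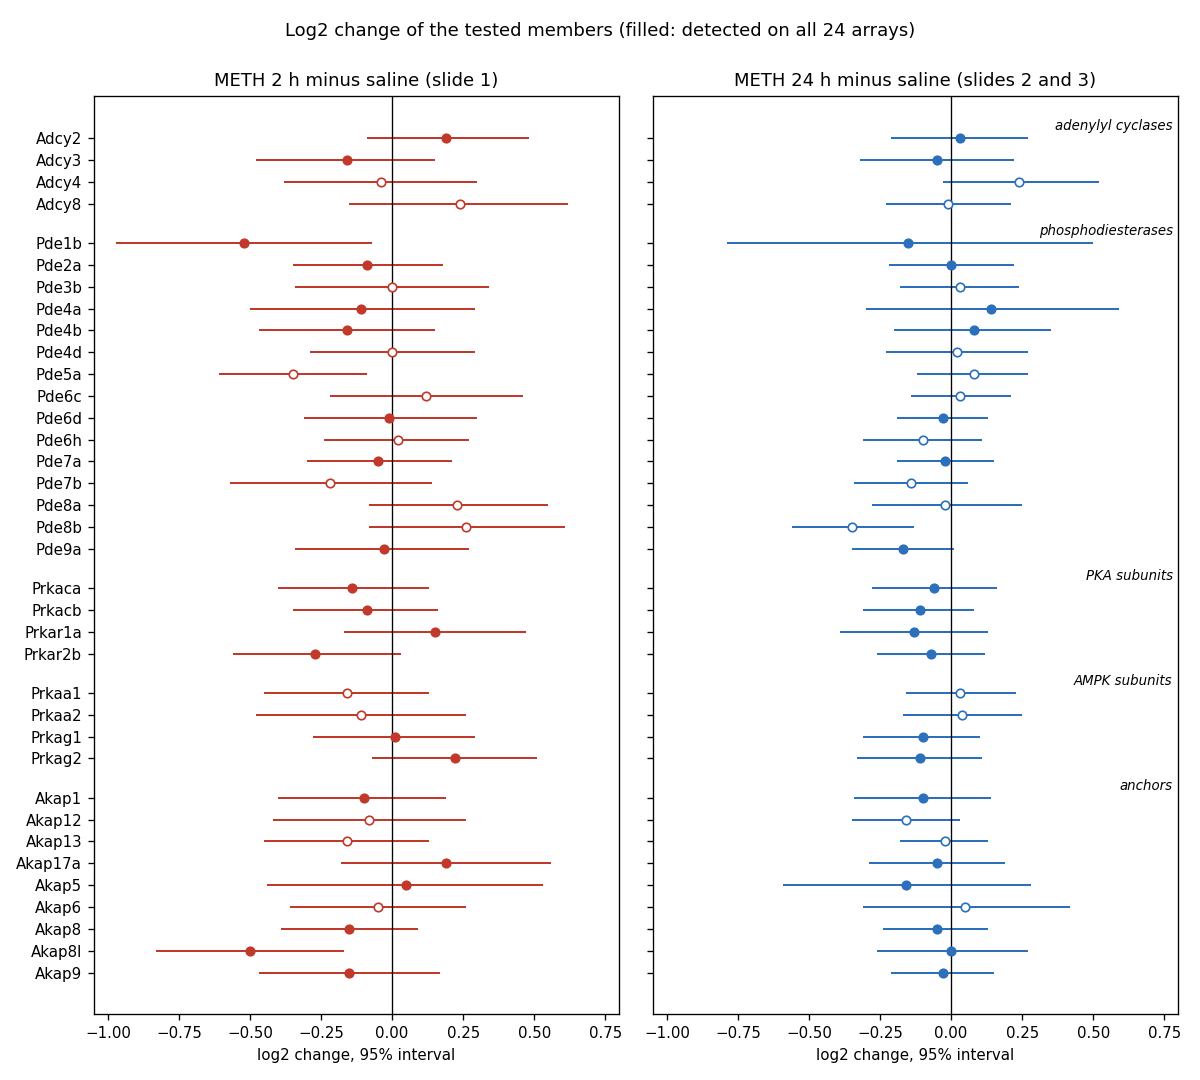
Log2 change (horizontal axis) with its 95% interval for each of the 36 tested members, by family, at 2 h (left) and 24 h (right); filled points were detected on all 24 arrays. At 2 h the intervals of Akap8l, Pde5a and Pde1b lie below 0, and at 24 h that of Pde8b does; all others include 0.

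Adenylyl cyclases make cyclic AMP from ATP. Adcy2, a form stimulated by G protein βγ subunits, had levels from 9.21 to 9.66 (median 9.38) on the saline arrays of slide 1 and from 9.20 to 9.94 (median 9.68) on the METH 2 h arrays. The METH arrays were higher in the middle, but the groups overlapped over most of their range, and the change was 0.19 (95% interval -0.09 to 0.48; adjusted p = 0.905). At 24 h it was 0.03 (-0.21 to 0.27). Adcy8, a calcium- and calmodulin-stimulated form, had a change of 0.24 at 2 h (-0.15 to 0.62; adjusted p = 0.905), with detection on 2 saline and 4 METH arrays, and of -0.01 at 24 h, a difference between the effects of -0.25 (adjusted p = 0.986). Adcy3, best known from olfactory neurons and neuronal cilia, showed -0.16 at 2 h (-0.48 to 0.15) and -0.05 at 24 h (-0.32 to 0.22). The sign at 2 h turned to 0.07 with scaling to the array medians and to 0.03 with the deposited log2 values centred per array. Adcy4 was the cyclase of lowest p at 24 h. Its saline levels ran from 5.34 to 6.05 (median 5.69) and its METH levels from 5.64 to 6.26 (median 6.02). Although 5 of 6 METH arrays lay above the saline mean, the change of 0.24 (-0.03 to 0.52) had an adjusted p of 0.998. It was 0.17 within slide 2 and 0.32 within slide 3. On slide 1 only 3 saline and 2 METH arrays detected Adcy4, and its change was -0.04. The effects at the 2 times differed by 0.28 (adjusted p = 0.986).

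Phosphodiesterases held the widest range of changes, from -0.52 to 0.26 at 2 h and from -0.35 to 0.14 at 24 h. Pde1b, a calcium- and calmodulin-activated enzyme that hydrolyses both cyclic nucleotides and is abundant in striatal projection neurons, had levels on slide 1 from 9.47 to 10.02 (median 9.83) in saline and from 8.16 to 9.68 (median 9.53) in METH 2 h rats. All 6 METH arrays lay below the saline mean, and 2 of them below every saline array, so the groups overlapped. Its mean went from 9.79 ± 0.21 to 9.27 ± 0.59 (SD, n = 6 each), a change of -0.52 or 1.43-fold lower (SE 0.214; unadjusted p 0.0259; adjusted p = 0.714). One array decided this size: without METH 2 h replicate 6 the change was -0.30 (unadjusted p 0.0551). With scaling to the array medians it was -0.29. At 24 h the levels ran from 8.20 to 9.59 (median 8.80) in saline and from 7.11 to 9.09 (median 8.99) in METH rats, and the change was -0.15 (-0.79 to 0.50). Here 1 METH array lay far below the others and 5 of 6 lay above the saline mean.

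Pde5a, which is specific for cyclic GMP, stood close to background. On slide 1 its levels ran from 4.97 to 5.55 (median 5.37) in saline, with detection on 5 of 6 arrays, and from 4.83 to 5.23 (median 4.89) in METH 2 h rats, with detection on 0 of 6. All METH arrays lay below the saline mean, and 4 of 6 below every saline array. Means were 5.33 ± 0.19 in saline and 4.98 ± 0.17 in METH rats (SD, n = 6 each), a measured change of -0.35 (SE 0.124; unadjusted p 0.0109; adjusted p = 0.664). Since no METH array was above background, the level there is only a bound, with a mean of 5.28 against the saline mean of 5.33 (1.04-fold). This gap is smaller than the SE of the measured change, so the bound establishes no fall. That bound sets the saline mean against the lowest detected signal of each METH array, or the probe's own signal where higher. At 24 h, 3 saline and 5 METH arrays detected it and the change was 0.08 (-0.12 to 0.27). The measured difference between the effects was 0.43 (unadjusted p 0.00804; adjusted p = 0.871), which carries the same limit, since it rests on the METH 2 h arrays below background.

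Pde8b, a high-affinity enzyme specific for cyclic AMP, had the lowest p at 24 h. On slides 2 and 3 its levels ran from 5.99 to 6.48 (median 6.24) in saline and from 5.50 to 6.20 (median 5.99) in METH 24 h rats, with detection on every array. All 6 METH arrays lay below the saline mean and 3 of 6 below every saline array. Means were 6.25 ± 0.16 and 5.91 ± 0.30 (SD, n = 6 each), a change of -0.35 or 1.27-fold lower (SE 0.102; unadjusted p 0.00421; adjusted p = 0.998). Its size was uneven between slides, with -0.52 within slide 2 and -0.17 within slide 3. At 2 h the levels were 5.26 to 5.85 (median 5.44) in saline and 5.40 to 6.27 (median 5.71) in METH rats, and the change was 0.26 (-0.08 to 0.61). Its signal was above background there on 3 saline and 6 METH arrays. The effects at the 2 times differed by -0.61 (SE 0.195; unadjusted p 0.0044; adjusted p = 0.809). Pde8a, the related enzyme, was above background at 2 h on 0 of 6 saline and 3 of 6 METH arrays, too few for a fold, and its measured change was 0.23 (-0.08 to 0.55; adjusted p = 0.892). The measured difference from its effect at 24 h was -0.25 (adjusted p = 0.986), with the same limit.

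The other phosphodiesterases had smaller values. Pde2a, which degrades cyclic AMP faster when cyclic GMP is bound, went from a mean of 11.15 ± 0.23 to 11.06 ± 0.15 at 2 h and was 10.85 in both groups at 24 h (SD, n = 6 each), with intervals of -0.35 to 0.18 and -0.22 to 0.22. Pde9a, specific for cyclic GMP, showed -0.03 at 2 h and -0.17 at 24 h (-0.35 to 0.01; adjusted p = 0.998), where its METH levels of 8.39 to 8.75 all lay below the saline mean of 8.77, with saline levels of 8.58 to 8.89. That change was -0.02 within slide 2 and -0.31 within slide 3. Among the cyclic AMP-specific Pde4 enzymes, Pde4a showed -0.11 at 2 h and 0.14 at 24 h, Pde4b -0.16 and 0.08, and Pde4d, detected on 6 arrays in all, 0.00 and 0.02. Pde7b, also specific for cyclic AMP, showed -0.22 at 2 h and -0.14 at 24 h (-0.34 to 0.06). No fold is given for it at 24 h, since 2 saline arrays and 0 METH arrays detected it. Its relative Pde7a showed -0.05 and -0.02, and Pde3b, which cyclic GMP inhibits, 0.00 and 0.03. The retinal genes Pde6c and Pde6h, a catalytic and an inhibitory subunit of the cone enzyme, lay near background with changes of -0.10 to 0.12. At 24 h Pde6h ran from 5.24 to 5.67 (median 5.36) in saline and from 5.08 to 5.48 (median 5.35) in METH rats, with a change of -0.10 (-0.31 to 0.11; adjusted p = 0.998) that was 0.00 within slide 2 and -0.20 within slide 3. Pde6d, which carries prenylated proteins, showed -0.01 and -0.03.

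**Figure D3:**
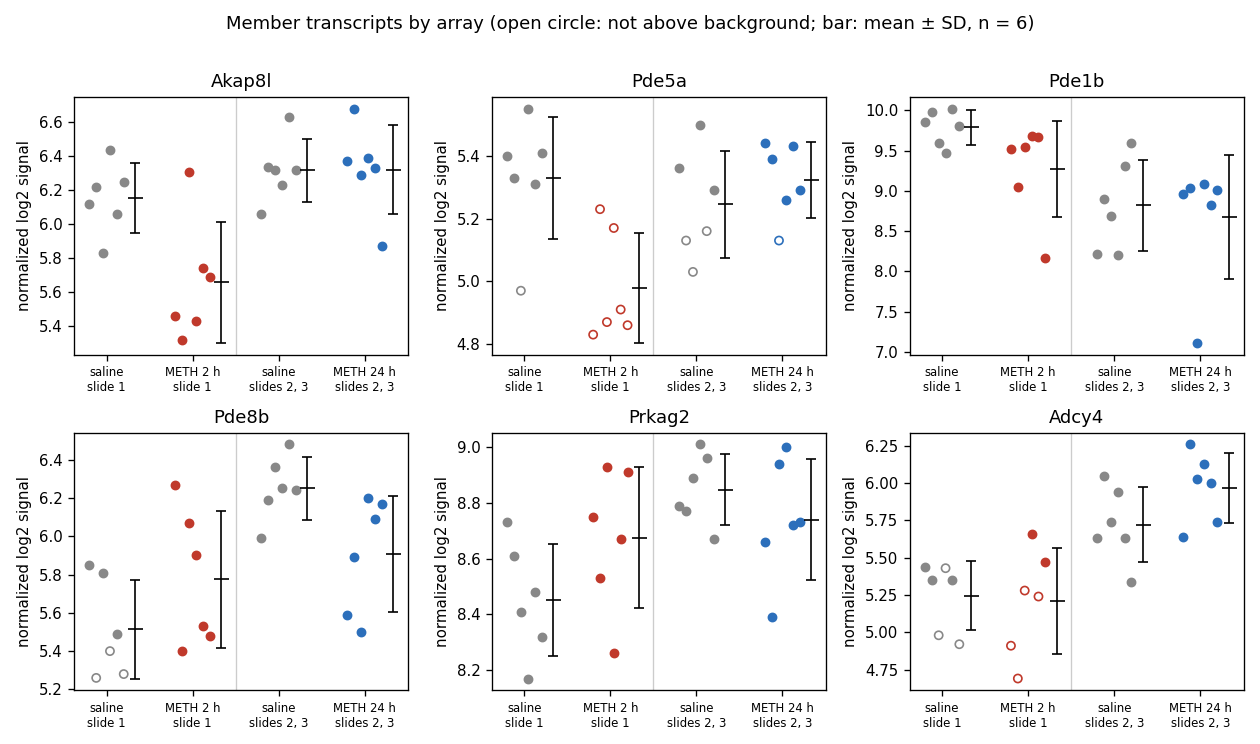
Normalized log2 signal (vertical axis) of 6 members on each of the 24 arrays, by group; bars are mean ± SD, and open circles were not above background. The METH 2 h arrays of Akap8l and Pde5a lie mostly under their saline arrays, and 1 METH array stands apart from the rest of its group in Akap8l and Pde1b.

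PKA consists of a pair of regulatory and a pair of catalytic subunits. All 4 tested subunits were detected on every array. Prkacb, the catalytic subunit β, had levels from 12.19 to 12.70 (median 12.44) in saline and from 12.02 to 12.48 (median 12.39) in METH 2 h rats, and from 11.92 to 12.31 (median 12.07) and 11.76 to 12.09 (median 12.03) at 24 h. Its groups overlapped at both times, with changes of -0.09 (-0.35 to 0.16) and -0.11 (-0.31 to 0.08). Prkaca, the catalytic subunit α, ran from 9.39 to 9.84 (median 9.69) in saline and from 9.05 to 9.61 (median 9.59) in METH 2 h rats. The change was -0.14 (-0.40 to 0.13), and -0.06 at 24 h (-0.28 to 0.16), where it was -0.29 within slide 2 and 0.17 within slide 3.

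Prkar2b encodes the regulatory subunit RIIβ, the main type II form of striatal neurons. Its levels ran from 9.83 to 10.33 (median 10.11) in saline and from 9.33 to 10.07 (median 9.92) in METH 2 h rats. All 6 METH arrays lay below the saline mean but 5 of 6 lay within the saline range, and the change was -0.27 (-0.56 to 0.03; unadjusted p 0.0719; adjusted p = 0.854). This value was -0.03 with scaling to the array medians, -0.07 with the deposited log2 values centred per array and -0.16 without METH 2 h replicate 6. At 24 h it was -0.07 (-0.26 to 0.12), and the effects differed by 0.20 (adjusted p = 0.986). Prkar1a, the type I subunit, had the opposite sign at 2 h, with levels from 9.58 to 10.29 (median 9.89) in saline against 9.67 to 10.54 (median 10.01) in METH rats, a change of 0.15 (-0.17 to 0.47). At 24 h its change was -0.13 (-0.39 to 0.13), and the effects differed by -0.28 (adjusted p = 0.986). Prkar2a, the other type II subunit, was detected on 4 arrays and not tested.

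**Figure D4:**
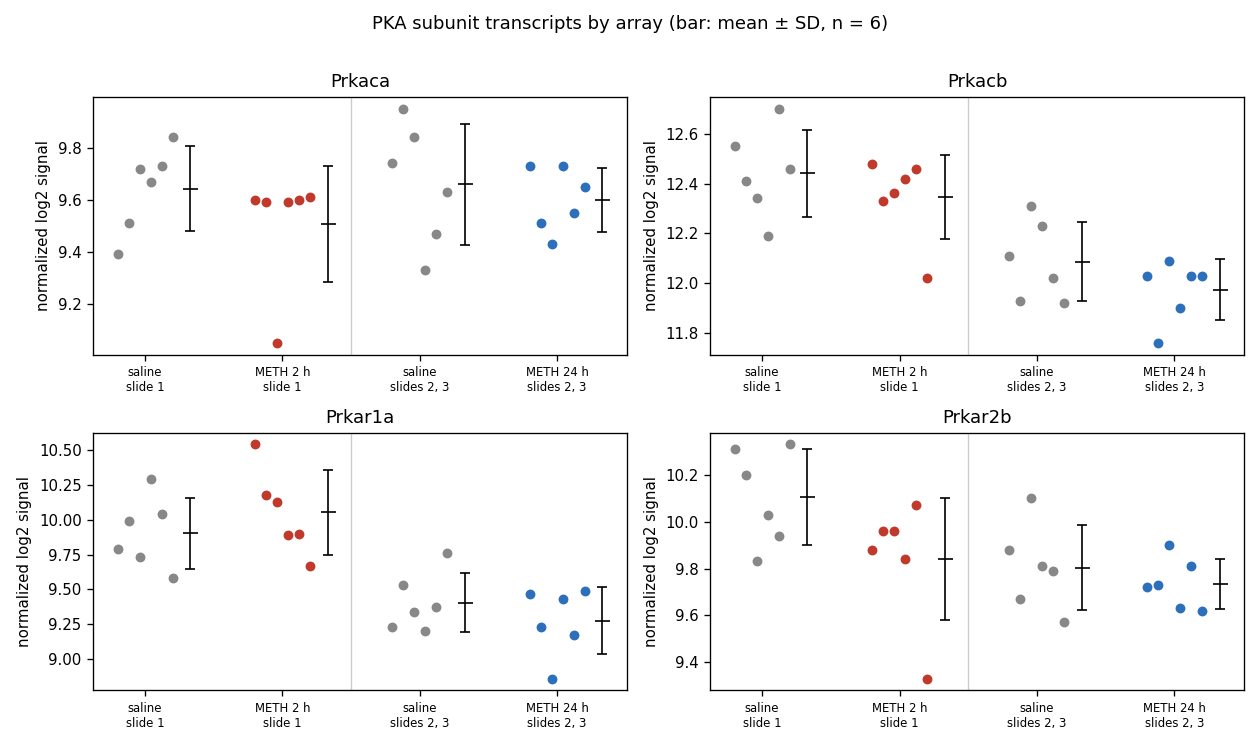
Normalized log2 signal (vertical axis) of the 4 tested PKA subunits on each of the 24 arrays, by group; bars are mean ± SD, n = 6. In each panel the METH arrays overlap the saline arrays of their own slides, and 1 METH 2 h array lies low in each of Prkaca (replicate 3), Prkacb and Prkar2b (replicate 6).

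AMPK is built from a catalytic α, a scaffolding β and an AMP-binding γ subunit. Of the γ subunits, Prkag2 had the lowest p of the family at 2 h, with levels of 8.17 to 8.73 (median 8.45) in saline and 8.26 to 8.93 (median 8.71) in METH rats. On 3 of 6 METH arrays it lay above every saline array, and the change was 0.22 (-0.07 to 0.51; adjusted p = 0.891). At 24 h it was -0.11 (-0.33 to 0.11), and the effects differed by -0.33 (unadjusted p 0.0679; adjusted p = 0.985). Prkag1 showed 0.01 at 2 h. At 24 h its levels ran from 6.88 to 7.39 (median 7.31) in saline and from 6.98 to 7.33 (median 7.16) in METH rats, within the saline range, with a change of -0.10 (-0.31 to 0.10; adjusted p = 0.998). The α subunits lay nearer to background. Prkaa1 was detected on 11 arrays and showed -0.16 and 0.03, a difference of 0.20 (adjusted p = 0.986), and Prkaa2 was detected on 14 and showed -0.11 and 0.04. The β subunit Prkab2 and 1 of 2 probes for the muscle form Prkag3 were on no array.

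Anchors gave the member with the lowest p at 2 h. Akap8l, a nuclear protein related to the anchor Akap8, had levels on slide 1 from 5.83 to 6.44 (median 6.17) in saline and from 5.32 to 6.31 (median 5.58) in METH 2 h rats. On 5 of 6 METH arrays it lay below every saline array, and on the remaining one near the top of the saline range. Means were 6.16 ± 0.21 and 5.66 ± 0.36 (SD, n = 6 each), a change of -0.50 or 1.41-fold lower (SE 0.157; unadjusted p 0.00552; adjusted p = 0.583). At 24 h its levels ran from 6.06 to 6.63 (median 6.32) in saline and from 5.87 to 6.68 (median 6.35) in METH rats, with a change of 0.00 (-0.26 to 0.27). The effects differed by 0.50 (unadjusted p 0.0243; adjusted p = 0.985). Its promoter, shown above, holds 1 copy of the CRE core.

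Akap8, which binds PKA in the nucleus, showed a like arrangement at a smaller size, with 5 of 6 METH 2 h arrays below every saline array, levels of 8.35 to 8.69 against 8.15 to 8.60, and a change of -0.15 (-0.39 to 0.09; adjusted p = 0.905). That sign turned with scaling to the array medians, to 0.08. Akap17a, the splicing-related anchor whose promoter holds the full CRE, showed 0.19 at 2 h (-0.18 to 0.56; adjusted p = 0.927) and -0.05 at 24 h (-0.29 to 0.19). Without the array of lowest weight in each group its value at 2 h turned to -0.08. The effects differed by -0.23 (adjusted p = 0.986). Akap5, which holds PKA at excitatory synapses, was among the members of largest spread, with levels of 5.89 to 7.34 in saline and 5.96 to 7.19 in METH 2 h rats, and showed 0.05 and, at 24 h, -0.16 (-0.59 to 0.28). Akap12, a scaffold at the cell membrane also called gravin, showed -0.08 and -0.16 (-0.35 to 0.03; adjusted p = 0.998 at 24 h). On slide 1 only 1 saline and 1 METH array detected Akap12, so its value at 2 h is one near background. The mitochondrial anchor Akap1 showed -0.10 at both times, Akap9 of the Golgi and centrosome -0.15 and -0.03, Akap6 of the nuclear envelope -0.05 and 0.05, and Akap13 -0.16 and -0.02.

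For the 21 members detected on all arrays, the intervals limit how large a change in the normalized signal could be. The 95% interval lay within 1.5-fold in either direction for 19 of 21 at 2 h, all but Akap8l and Pde1b, and for 18 of 21 at 24 h, all but Akap5, Pde1b and Pde4a. Among all 6611 probes detected on all arrays, 87.8% and 96.3% had such intervals. The 4 tested PKA subunits, Adcy2 and Adcy3 were within it at both times. Pde1b, Akap5 and Pde4a also had the largest residual SDs of the members, 0.445, 0.488 and 0.378 on slide 1 and 0.648, 0.424 and 0.433 on slides 2 and 3. The offset added in background correction makes measured changes smaller than the true ones, more so at lower signal. The limits above therefore hold for the normalized signal, and true changes of the less bright of these 21 may exceed them. For the dimmer members, not detected on all arrays, the narrow intervals give no such limit.

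Some saline levels did not overlap between the sets of slides. For 4 members (Akap6, Akap9, Pde4b and Pde7a) every saline array of slide 1 lay above every saline array of slides 2 and 3, against 9.09% of all probes, and for 1, Pde8b, below, against 11.9%. Pde4b, for instance, had a saline mean of 7.49 ± 0.30 on slide 1 and 6.64 ± 0.28 on slides 2 and 3 (n = 6 each), and Pde8b 5.51 ± 0.26 and 6.25 ± 0.16. The slides cannot be told apart here from any difference in handling or time of death of the saline rats. No METH level was compared between the sets of slides. Time after METH and slide set cannot be told apart in the difference between the METH effects.

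Other genes of the pathway gave no call either. No gene of 5 pathway lists passed an adjusted p of 0.05 in limma at 2 h, at 24 h or for the difference. The counts at an unadjusted p under 0.05 below stand against 3.45% of all probes higher and 2.59% lower at 2 h, and 2.17% and 1.91% at 24 h. Of 38 receptors coupled to cyclic AMP, 14 were tested, and at an unadjusted p under 0.05 at 2 h there were 0 higher and 1 lower, Drd1, the dopamine D1 receptor, at -0.38 (adjusted p = 0.67). At 24 h there was 1 higher and 1 lower, of which the melanocortin receptor Mc4r had the lowest p, at -0.44 (adjusted p = 0.998). All 12 listed G proteins and their regulators were tested, with 2 higher and 0 lower at 2 h (Gnb1, a β subunit, 0.29; adjusted p = 0.703) and 0 in either direction at 24 h. Of 19 PKA targets, phosphatases and CREB factors, 12 were tested, with 2 higher and 1 lower at 2 h and 0 at 24 h. Crem, a relative of CREB whose short form represses cyclic AMP-driven transcription, had the lowest p there, at 0.53 (unadjusted p 0.00465; adjusted p = 0.583). Its levels ran from 5.73 to 6.83 in saline and from 6.85 to 7.25 in METH 2 h rats, so that the lowest METH array lay just above the highest saline array, as in 0.251% of all probes, and at 24 h the change was -0.08. Creb1 was not tested. Of 17 PKA inhibitors and other cyclic AMP effectors, 6 were tested, and of 15 upstream kinases and targets of AMPK, 8. In these lists 0 genes had an unadjusted p under 0.05 at either time. The lowest p among them was that of the effector Rapgef4, at -0.32 at 24 h (unadjusted p 0.0503; adjusted p = 0.998). The pair left out by the rule, Pde10a and Adcy5, the main phosphodiesterase and cyclase of projection neurons, showed -0.54 (adjusted p = 0.561) and -0.22 at 2 h and 0.25 and -0.05 at 24 h.

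Cell type markers were measured beside these results, since in RNA of a whole tissue fewer cells of a type and less RNA per cell cannot be told apart. Of 19 projection neuron markers, 16 were tested and all 16 were detected on every array of the labelled tissue. Their mean level ran from 10.37 to 10.65 in saline and from 10.24 to 10.54 in METH 2 h rats, a difference of -0.11 (exact permutation test, two-sided, p = 0.104; 0.381 adjusted over 22 marker comparisons), and the difference was 0.01 at 24 h. Single markers lay on both sides at 2 h. At an unadjusted p under 0.05, against the shares of all probes above, 4 of 16 were lower (Itpka -0.42, Drd1 -0.38, Rgs9 -0.32 and Ppp1r1b, which encodes DARPP-32, -0.27) and 1 was higher (Pdyn 0.51). Of 16 cortex markers, 8 were tested, with Neurod1 and Slc30a3 on no array. Their mean ran from 6.11 to 7.41 in saline and from 6.86 to 7.86 in METH 2 h rats, a difference of 0.66 (exact permutation p = 0.0346; adjusted 0.238), and 0.18 at 24 h. In limma at 2 h, 5 of the 8 were higher at an unadjusted p under 0.05 and 0 lower, against 3.45% and 2.59% of all probes. Thalamus and pallidum markers, 4 of 8 tested and with Zic1 on no array, differed by 0.34 at 2 h, with means of 6.37 to 7.07 and 6.78 to 7.22 (exact permutation p = 0.0541; adjusted 0.238), and by 0.18 at 24 h. Striatal interneuron markers, 10 of 11 tested, differed by 0.15 at 2 h, with means of 6.75 to 7.07 and 6.98 to 7.12 (exact permutation p = 0.0173; adjusted 0.19). Most of this mean came from Vip, at 1.32, while the median of the 10 changes was 0.04 and Nos1 stood at -0.34. At 24 h, microglia markers, 10 of 12 tested, differed by 0.27, with means of 7.14 to 7.59 and 7.40 to 8.07 (exact permutation p = 0.0455; adjusted 0.238). In limma 6 of these 10 were higher at an unadjusted p under 0.05 and 0 lower, against 2.17% and 1.91% of all probes. Blood markers, 6 of 8 tested and with Alas2 on no array, differed by -1.15 at 24 h, with means of 8.28 to 9.31 in saline and 7.12 to 8.01 in METH rats (exact permutation p = 0.00216; adjusted 0.0475). In limma 4 of the 6 passed an adjusted p of 0.05, all haemoglobin genes (Hbb -1.75, Hbb-b1 -1.80, Hba-a1 -1.69 and Hba-a3 -1.51). The remaining blood markers, Epb42 and Pf4, stood at -0.12 and -0.03. Choroid plexus and ependyma markers, 2 of 8 tested, varied widely between arrays, with means from 6.81 to 10.73 in saline of slide 1. They differed by -0.58 at 2 h and -0.70 at 24 h (exact permutation, adjusted 0.654 and 0.583). Lists for astrocytes, oligodendrocytes, their precursors, and endothelial and mural cells had differences from -0.12 to 0.08. The part of these marker differences in those of Akap8l, Pde5a, Pde1b and Pde8b was not tested.

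**Figure D5:**
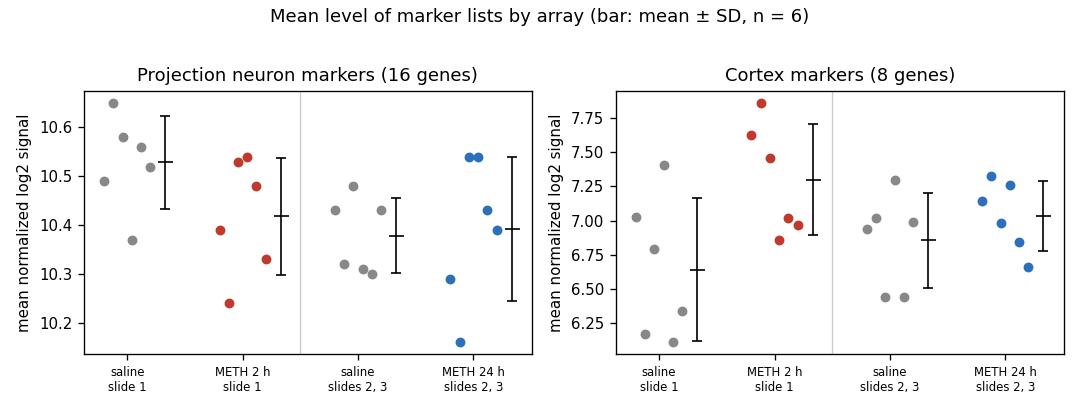
Mean normalized log2 signal (vertical axis) of the tested projection neuron markers (left) and cortex markers (right) on each of the 24 arrays, by group; bars are mean ± SD, n = 6. The projection neuron means of METH and saline arrays overlap at both times, and the cortex means of METH 2 h arrays lie from 6.86 to 7.86, above 4 of the 6 saline arrays of slide 1.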

How the data were processed

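RNA of dorsal striata was labelled with biotin and read on RatRef-12 BeadChips, which carry 12 single-colour arrays per slide, per the labels' protocols. Probe intensity values were deposited by the authors, raw per the file header but already background-subtracted, since 26.4% to 31.7% of an array's values lie below 0. The deposited detection p-value columns do not follow the probe order of the intensities and behave as 1 minus p, so each array's sorted scores were assigned to its sorted intensities. The authors also deposited log2 values, recomputed here by flooring the intensity at 1, taking log2 and subtracting each probe's median over slide 1 or over slides 2 and 3, and used as an alternative. The labels and headers used here name no software for these steps.

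In R 4.3.3, neqc of limma 3.58.1 corrected the background (offset 16) and normalized all 24 arrays by quantiles. Arrays had 8208 to 10297 detected probes, and their number limits the precision. Symbols came from the platform annotation, checked through RefSeq, and can be old. Groups came from the sample titles and slides from the array names. Replicate numbers were given here in the order of the sample records, only name an array and pair none. Since slide 1 had a median residual SD of 0.25 and slides 2 and 3 one of 0.175, each comparison was fitted with lmFit and eBayes on its own 12 arrays, with a term for slide at 24 h. The difference was a contrast over all arrays with a weight per slide set. P-values are two-sided and adjusted by Benjamini-Hochberg over all tested probes, with a threshold of 0.05. Arrays were treated as separate animals, as the labels' protocols mention separate groups. The scripts were run on simulated data as a check of the code only. The simulated noise was independent for each probe and array, so this run says nothing of errors shared within an array or slide. Marker means were compared by exact permutation tests over arrays. Bounds for a group with no detected array use the lowest detected signal of each array.

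Members, lists, tests and alternatives were chosen with earlier results of these data known. Named with values are the 10 members of lowest p in each comparison and the largest rise and fall of each family, with levels per group for those that the results turn on. Pathway genes named with a change have the lowest p of their list at 2 h or 24 h, or were left out by the rule. Not every pathway gene of lowest p is named. Promoter motifs, single markers and some further members were named after their values were seen. Rats killed 1 month after the last session were not analysed here.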

Additional observations from a re-analysis of the deposited data

Results flagged for a closer look

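In 9 of 144 groups of 6 arrays (36 members in 4 groups), 1 array lay far from the other 5 by Dixon's test at the 95% level, which chance alone gives in about 1 in 20 groups. METH 2 h replicate 6 was low for Prkacb, at 12.02, and for Prkar2b, at 9.33, and high for Akap17a, at 8.22. This array also had the lowest array weight of its group, 0.558. METH 2 h replicate 3 was low for Prkaca, at 9.05. Among the saline arrays of slide 1, Pde7a was low on replicate 1, at 7.28, and Akap17a was low on replicate 4, at 6.72, the array of lowest weight in that group (0.495). On slides 2 and 3, Pde1b stood at 7.11 on METH 24 h replicate 3, Akap1 at 6.05 on saline replicate 1 and Prkag1 at 6.88 on saline replicate 3.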

How the results depend on the processing

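No member passed an adjusted p of 0.05 in limma under any of 21 other settings at 2 h, 24 at 24 h and 36 for the difference, and the lowest adjusted p of a member was 0.204, 0.832 and 0.429. The lowest at 2 h came from a fit with a spread shared by all arrays. Members at an unadjusted p under 0.05 numbered 3 at 2 h (2 to 5 with 1 array left out, 5 without METH 2 h replicate 4), 1 at 24 h (1 to 2 with 1 array left out, 2 without a filter on dim probes and 2 without the array of lowest weight in each group) and 3 for the difference (2 to 4 with 1 array left out, 1 with slide 3 alone against slide 1). Of 1045 values of single genes under alternatives, 1024 kept their sign. These genes were chosen by lowest p or largest change in these same data, and many settings left out only 1 array. A kept sign was therefore likely from the start. With median scaling and with the deposited log2 values centred per array, the change at 2 h was 0.08 and 0.05 for Akap8 and 0.07 and 0.03 for Adcy3, and the difference for Prkar2b was -0.08 and -0.01. Without the arrays of lowest weight, Akap17a stood at -0.08 at 2 h and 0.12 for the difference, and Pde4a at -0.03 and Akap6 at -0.06 at 24 h. Within slide 2 the change at 24 h was -0.04 for Prkaa2 and 0.00 for Pde6h. Within slide 3 it was 0.02 for Adcy3 and 0.17 for Prkaca, and the difference against slide 1 was 0.02 for Akap17a. With 1 array left out, changes at 24 h ranged from -0.06 to 0.19 for Akap6, -0.14 to 0.04 for Adcy3, -0.01 to 0.29 for Pde4a and -0.02 to 0.09 for Prkaa2. The cause of these changes was not tested. Pde8a, Pde7b and Prkaa1 had no value where detection on 12 arrays was required. No paired analysis was possible because the labels do not say which saline rat was yoked to which METH rat. The replicate numbers used here only name arrays. Any pairing through the yoked design was therefore left out of the tests. Members near background have changes that the offset makes smaller.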
